A study of Mus musculus with 6 samples.

Results

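The 10 fibroblast growth factor (FGF) genes described here are Fgf1, Fgf2, Fgf5, Fgf7, Fgf9, Fgf10, Fgf13, Fgf16, Fgf18 and Fgf21, out of 20676 named genes on the array. They were found as the probes whose RefSeq accession maps to these symbols, which gave 12 probes, 2 each for Fgf1 and Fgf18 and 1 for each of the other genes. RNA came from fibroblasts grown from the heart and from the skinned tail of male C57/Bl6-J mice, aged 8 weeks in the sample labels and 8 to 10 weeks in the protocol. Tissue was digested with trypsin or collagenase, the cells were plated for 5 days, and each of 3 cultures per tissue was pooled from 2 animals. Each culture was measured on 1 single-colour (Cy3) Agilent array, giving 3 arrays labelled heart and 3 labelled tail. No sort for fibroblasts is stated, so the cultures may hold other cells. The labels do not say whether the same animals supplied hearts and tails, nor which enzyme each culture had.

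FGFs are signalling proteins that, when secreted, bind tyrosine kinase receptors together with heparan sulphate on the cell surface, or, for the hormone-like members, together with a klotho protein. Receptor activation runs through adaptors such as Frs2 to the MAP kinase cascade, which in turn induces its own inhibitors, the Sprouty and Dusp genes. Mesenchymal cells, fibroblasts among them, are a classical source of FGFs that act on neighbouring epithelium, and FGF signals from mesenchyme and epicardium are known from limb, skin, lung and heart development.

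Levels are given as log2 of the processed signal minus the 75th percentile of that array (controls excluded), so a level of 0 is a probe at that percentile, and levels of different probes are not comparable with each other. A difference is heart minus tail on this log2 scale. Between 47.3% and 55.2% of spots stood well above background on 5 of the arrays. The array labelled heart 2 had 99.3%, with a median processed signal of 949 against 24.3 to 37.8 elsewhere, and it correlated with the other arrays at 0.742 to 0.764 across probes (Pearson), where the remaining pairs gave 0.957 to 0.988. The array labelled tail 1 had the epicardial transcription factor gene Tcf21 at 5.44, while heart 1 and 3 gave 5.37 and 5.28 and the tail arrays 2 and 3 gave -5.45 and -5.64. It had the posterior homeobox gene Hoxb13 at -6.97, while heart 1 and 3 gave -7.04 and -5.44 and the tail arrays 2 and 3 gave 6.60 and 6.76. The array labelled heart 2 also ran against its label, with Tcf21 at -2.38 and Hoxb13 at 4.44. Whether samples were exchanged or mixed cannot be told from the files, so every value given by label holds for the labels as deposited. Results are therefore given for all 6 arrays by label and for heart 1 and 3 against tail 2 and 3, called the 4-array comparison below. Tail 1 was left out for its expression, the outcome itself, so the p-values from 4 arrays understate the uncertainty to a degree that is not known. All 11 general fibroblast markers, among them Col1a1, Pdgfra and Vim, were well above background on all 6 arrays. On heart 2 this held for 99.3% of all spots. Their levels were not even between tissues. In the 4-array comparison 5 of the 11 rose and 2 fell in heart, where 7.75% of all features rose and 6.63% fell.

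In the 4-array comparison Fgf5, Fgf7 and Fgf10 were lower in heart than in tail, and no FGF ligand gene was higher. Of the other members, 6 did not pass the test and Fgf16 was not tested, since it was not well above background on any of these 4 arrays. By label, 0 of the 7 members tested passed (limma, smallest adjusted p = 0.714; 1 member, Fgf7, at an unadjusted p under 0.05), where 0% of 20197 features were called and 445 had an unadjusted p under 0.05. In the 4-array comparison limma called 14.4% of 20567 features, 7.75% higher and 6.63% lower in heart. The 9 tested members had a median difference of -0.91, against -0.07 over all features. Fgf5, Fgf10 and Fgf21 entered the test only through their signal in tail, so these counts and this median describe the members that passed the filter and not all 10 genes. The groups did not overlap at 8 of the 9 tested members, against 62.5% of all features.

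**Figure D1:**
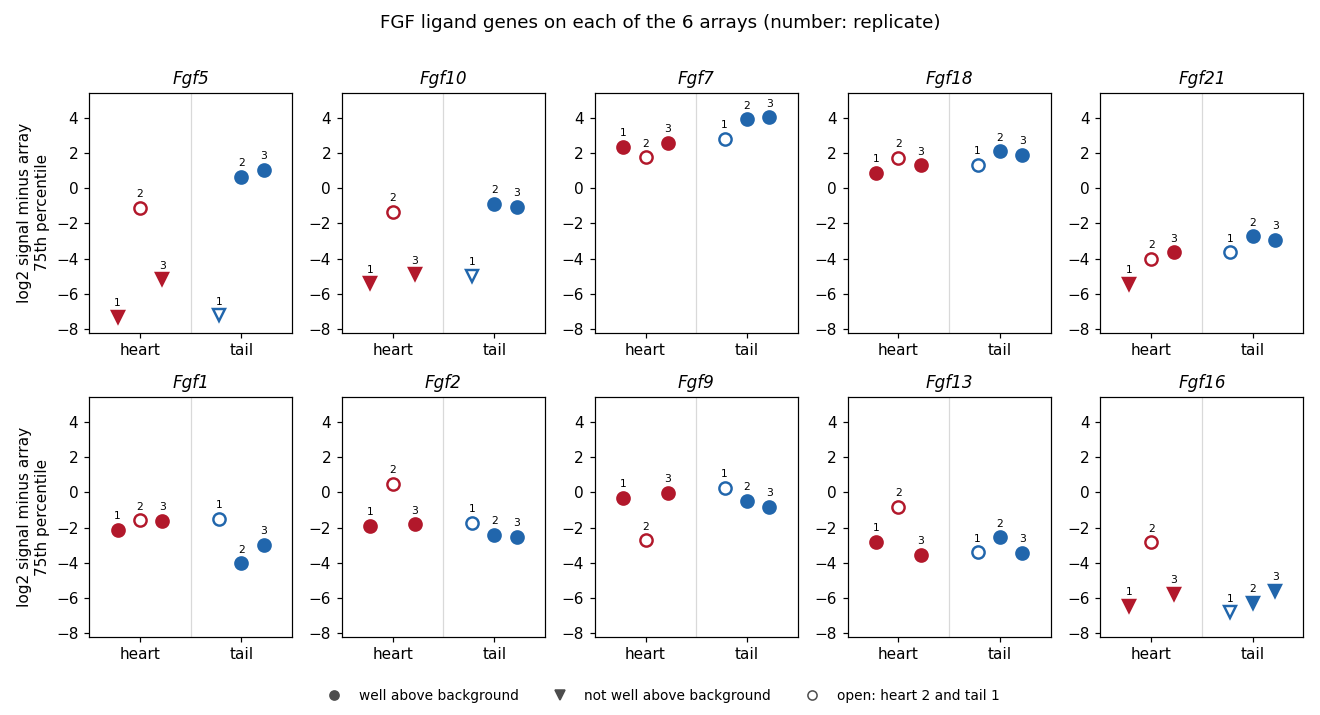
Level of each FGF ligand gene (log2 signal minus the array's 75th percentile, y axis) on the 3 heart arrays (left, red) and the 3 tail arrays (right, blue), with the replicate number beside each point. Triangles are signals not well above background and open symbols are heart 2 and tail 1. Fgf5 and Fgf10 stand well above background on tail 2 and 3 and below it on heart 1, heart 3 and tail 1.

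The promoter windows of the 3 called genes are shown because these genes moved in the same direction. Each runs from 250 bases before to 30 bases after the annotated start in RefSeq (GRCm38.p6), and capitals mark matches, on either strand, to 6 short motifs: the TATA box TATAAA, the box named CCAAT, the GC box GGGCGG, the AP-1 site TGANTCA, the T-box core GGTGTGA and the ETS core CCGGAA. No marked matches overlap in these 3 windows.
Fgf5, chr5:98253934-98254213, plus strand: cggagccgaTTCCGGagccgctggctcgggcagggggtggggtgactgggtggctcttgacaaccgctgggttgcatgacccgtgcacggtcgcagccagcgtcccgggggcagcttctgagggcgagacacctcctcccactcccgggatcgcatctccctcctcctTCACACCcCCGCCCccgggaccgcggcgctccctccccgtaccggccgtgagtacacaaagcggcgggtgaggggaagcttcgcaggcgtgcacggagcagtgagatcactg
Fgf7, chr2:126034408-126034687, plus strand: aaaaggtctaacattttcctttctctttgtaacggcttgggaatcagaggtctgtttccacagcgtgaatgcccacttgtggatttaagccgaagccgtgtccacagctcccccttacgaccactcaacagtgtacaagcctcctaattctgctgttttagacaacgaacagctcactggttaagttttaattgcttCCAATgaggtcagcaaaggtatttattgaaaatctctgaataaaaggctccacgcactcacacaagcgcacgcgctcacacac
Fgf10, chr13:118714449-118714728, plus strand: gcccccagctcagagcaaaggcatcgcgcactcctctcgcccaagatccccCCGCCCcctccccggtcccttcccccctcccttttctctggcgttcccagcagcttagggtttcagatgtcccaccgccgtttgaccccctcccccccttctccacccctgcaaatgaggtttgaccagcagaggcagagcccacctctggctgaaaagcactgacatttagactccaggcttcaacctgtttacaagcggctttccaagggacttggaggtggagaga

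No motif searched was shared by all 3 windows. The Fgf5 window held the GC box, the T-box core and the ETS core, the Fgf10 window held the GC box, and the Fgf7 window held the CCAAT box. Among 32851 promoter windows of the same length, 34.7% held the GC box, 36.1% the CCAAT box, 14.2% the ETS core, 13.1% the TATA box, 7.46% the AP-1 site and 3.74% the T-box core. Of the 3, the Fgf5 window was richest in CG dinucleotides, with 27, against 10 in the Fgf7 window, 9 in the Fgf10 window and a median of 6 over all windows. A match describes these letters and is not evidence of binding. RefSeq windows matched 8 of the 10 members.

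Fgf5, a secreted ligand known in mice as the factor that ends the growth phase of the hair cycle, was detected in tail 2 and 3 and not in heart 1 or 3. Its level was -7.31, -1.13 and -5.18 on heart 1, 2 and 3, and -7.23, 0.66 and 1.03 on tail 1, 2 and 3. The signal was well above background on tail 2, tail 3 and heart 2 and not on heart 1, heart 3 or tail 1. On heart 2, however, 99.3% of all spots were well above background. In the 4-array comparison Fgf5 was lower in heart (fitted log2 difference -7.09, SE 0.73, limma adjusted p = 0.00699). With heart 1 and 3 set at their lowest signal well above background, the fold was 40.3, which is not a strict lower bound. Leaving out any 1 of the 4 arrays gave a difference of -8.15 to -6.02, and with normexp background correction the fitted difference was -3.85. Fgf5 entered the test through tail alone. Without the signal filter it was not called on the 4 arrays (limma adjusted p = 0.0585). By label the heart and tail values overlapped, and Fgf5 did not meet the signal filter; without that filter its difference was -2.69 (SE 2.59, adjusted p = 0.734).

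Fgf10, a mesenchymal ligand needed for limb and lung budding in the mouse, followed the same order of arrays. It stood at -5.40, -1.33 and -4.89 on heart 1, 2 and 3, and at -4.98, -0.88 and -1.07 on tail 1, 2 and 3. As with Fgf5, heart 2 lay nearer to tail 2 and 3, and tail 1 lay with heart 1 and 3. Only heart 2, tail 2 and tail 3 were well above background. On heart 2 this held for 99.3% of all spots, so that array does not show that Fgf10 was expressed. Fgf10 was lower in heart in the 4-array comparison (fitted log2 difference -4.17, SE 0.23, limma adjusted p = 0.00153). With heart 1 and 3 set at their lowest signal well above background, the fold was 11.4, which is not a strict lower bound. Leaving out any 1 of the 4 arrays gave a difference of -4.42 to -3.92. Like Fgf5, Fgf10 entered the test through tail alone. With normexp background correction the difference was -1.85. By label and without the filter the difference was -1.56 (SE 1.52, adjusted p = 0.734).

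Fgf7, also called keratinocyte growth factor, belongs to the same subfamily as Fgf10, and both act mainly on the epithelial splice form of Fgfr2. It was expressed well above background on all 6 arrays, at 2.37, 1.76 and 2.60 on heart 1, 2 and 3 and 2.82, 3.93 and 4.03 on tail 1, 2 and 3. Every heart value lay below every tail value. How many of all features were separated in this way by label was not counted. By label the difference was -1.35 (SE 0.50, limma adjusted p = 0.714). In the 4-array comparison Fgf7 averaged 2.49 ± 0.16 in heart and 3.98 ± 0.07 in tail (SD, n = 2 each), 2.81-fold lower in heart (log2 difference -1.49, SE 0.16, limma adjusted p = 0.00797). Without tail 2 (adjusted p = 0.0615) or without tail 3 (0.0730) Fgf7 was no longer called, while leaving out any 1 array kept the difference between -1.60 and -1.38.

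Fgf18 and Fgf21 were also lower on heart 1 and 3 than on tail 2 and 3, without passing the test. Fgf18, a ligand of cartilage and bone growth, had 0.88, 1.74 and 1.30 on heart 1, 2 and 3 and 1.32, 2.09 and 1.92 on tail 1, 2 and 3, a 4-array difference of -0.91 (95% interval -1.46 to -0.37, limma adjusted p = 0.0565). Its second probe read -0.21, -0.70 and 0.14 on the heart arrays and 0.27, 0.97 and 0.84 on the tail arrays, so the lower values on heart 1 and 3 did not depend on the choice of probe. Whether Fgf18 passed depended on the processing: its adjusted p was 0.0412 with median scaling, 0.0258 with normexp, 0.0471 with the mean of its probes, 0.0342 with a trended and robust fit, and 0.0450 without heart 3. Fgf21, a hormone made chiefly in liver that signals through the co-receptor Klb, had -5.44, -4.02 and -3.63 on heart 1, 2 and 3 and -3.64, -2.73 and -2.94 on tail 1, 2 and 3. It was well above background on every array except heart 1, its 4-array difference was -1.71 (95% interval -3.35 to -0.06, limma adjusted p = 0.164), and 1 heart array decided its size. Without heart 3 it passed (log2 difference -2.61, adjusted p = 0.0189), without heart 1 it was -0.80 (adjusted p = 0.0638), and with normexp it was -0.74 (adjusted p = 0.165). Tail 1 lay nearer to tail than to heart for Fgf21 alone among the 9 tested members.

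Fgf1, Fgf2 and Fgf9 had the opposite sign in the 4-array comparison, and none passed. Fgf1, a ligand that binds all FGF receptors and leaves cells without a signal peptide, had -2.13, -1.59 and -1.62 on heart 1, 2 and 3 and -1.50, -4.02 and -2.99 on tail 1, 2 and 3. Tail 1 was the highest of the 6 arrays and tail 2 the lowest. The 4-array difference of Fgf1 was 1.63 (95% interval 0.55 to 2.72, limma adjusted p = 0.0722), and without tail 3 it was 2.15 (adjusted p = 0.0311) and without tail 2 it was 1.12 (adjusted p = 0.201). With normexp it was 0.73 (adjusted p = 0.0681), and with median scaling it passed (adjusted p = 0.0176). The other Fgf1 probe was well above background on heart 2 alone.

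Fgf2, basic FGF, a mitogen of fibroblasts and endothelium, had -1.89, 0.47 and -1.81 on heart 1, 2 and 3 and -1.74, -2.42 and -2.52 on tail 1, 2 and 3. Heart 2 stood far above the rest, and without it and tail 1 the difference was 0.62 (95% interval 0.23 to 1.01, limma adjusted p = 0.0644), against 1.15 by label. With normexp it was 0.28 (adjusted p = 0.268). Fgf9, a ligand of epicardium, mesothelium and lung mesenchyme development, had -0.31, -2.73 and -0.03 on heart 1, 2 and 3 and 0.24, -0.49 and -0.84 on tail 1, 2 and 3. Its direction turned on heart 2: the difference was 0.49 in the 4-array comparison (95% interval -0.06 to 1.04, limma adjusted p = 0.208) and -0.66 by label (adjusted p = 0.714).

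The last members were not called in either comparison. Fgf13, an FGF-homologous factor that stays inside the cell and binds voltage-gated sodium channels, had -2.83, -0.82 and -3.54 on heart 1, 2 and 3 and -3.40, -2.56 and -3.42 on tail 1, 2 and 3. Its groups overlapped, and its 4-array difference of -0.20 had an interval from -1.25 to 0.86 (limma adjusted p = 0.777). Of 7 sodium channel and scaffold genes on the array from the list of its partners, 4 were tested and limma called 0, with 0 at an unadjusted p under 0.05. Fgf16, of the same subfamily as Fgf9, read -6.45, -2.83 and -5.76 on heart 1, 2 and 3 and -6.82, -6.29 and -5.60 on tail 1, 2 and 3. It was well above background only on heart 2, where 99.3% of all spots were.

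**Figure D2:**
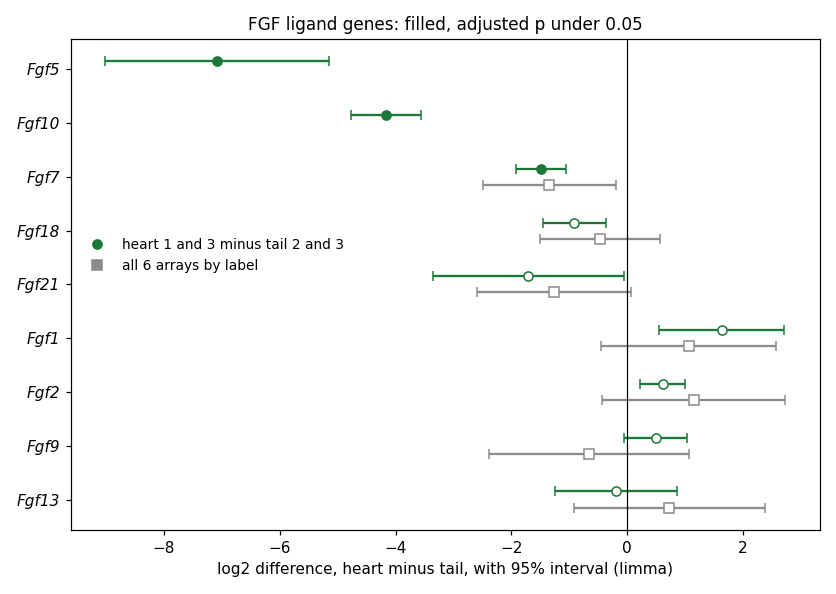
Log2 difference of heart minus tail (x axis) with its 95% interval for the tested FGF ligand genes, in the 4-array comparison (green circles) and for all 6 arrays by label (grey squares). Filled symbols passed the test; Fgf5, Fgf10 and Fgf7 did so in the 4-array comparison at -7.09, -4.17 and -1.49, and none did by label.

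Against the means of the other 4 arrays, tail 1 lay nearer to heart at 8 of the 9 tested members and nearer to tail at 1. Heart 2 lay nearer to heart at 4, which were Fgf1, Fgf2, Fgf7 and Fgf21, and nearer to tail at 5. The shares over all features were not counted. Across all probes tail 1 correlated with heart 1 and 3 at 0.988 and 0.979 (Pearson). With tail 2 and 3 it gave 0.969 and 0.957, so the counts for tail 1 are not particular to these members. The 4 arrays lay in 2 rows of 1 slide, and the difference could be taken within each row. Within the first row (heart 1 minus tail 2) Fgf5, Fgf10 and Fgf7 differed by -7.96, -4.52 and -1.55, and within the second row (heart 3 minus tail 3) by -6.21, -3.82 and -1.43. The authors' deposited table of 433 probes at least 2.00-fold different between heart and tail lists 0 of the 10 members, and the sources used here do not say how its probes were chosen.

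Of the 12 remaining FGF genes, all on the array, 4 were tested (Fgf8, Fgf11, Fgf14 and Fgf23) and limma called 0 of them in either comparison (unadjusted p under 0.05 for 1 in the 4-array comparison and 0 by label). The other 8, among them Fgf3, Fgf4 and Fgf20, did not meet the signal filter in heart or in tail. The second Fgf23 probe was well above background on heart 2 alone.

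The tested probes of Fgfr1, Fgfr2, Fgfr3, Fgfr4 and Fgfrl1 were well above background on heart 1 and 3 and on tail 2 and 3. Of 7 receptor and co-receptor genes, 5 were tested in the 4-array comparison. Fgfr2 and Fgfr3 fell in heart, and the decoy-like receptor Fgfrl1, which lacks a kinase domain, rose. Over all features 7.75% rose and 6.63% fell. Fgfr3 had 0.20, 0.10 and -0.16 on heart 1, 2 and 3 and -0.12, 1.75 and 1.91 on tail 1, 2 and 3, a 4-array difference of -1.81 (SE 0.19, limma adjusted p = 0.00758), and lost its call without tail 3 (adjusted p = 0.05005). Fgfr2 had -0.08, -0.03 and -0.14 on heart 1, 2 and 3 and -0.06, 0.81 and 0.62 on tail 1, 2 and 3, a difference of -0.82 (SE 0.16, limma adjusted p = 0.0351). Fgfr2 lost its call with any 1 array left out (0.0528 to 0.340). The array's Fgfr2 probes were not assigned to a splice form here.

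Fgfrl1 had 4.89, 1.37 and 4.98 on heart 1, 2 and 3 and 4.99, 3.96 and 3.83 on tail 1, 2 and 3, a 4-array difference of 1.04 (SE 0.15, limma adjusted p = 0.0166), lost without tail 2 (0.137) or tail 3 (0.192). By label its sign turned (-0.51), and limma called 0 of the 5 receptors tested, with 0 at an unadjusted p under 0.05. Fgfr1, the main receptor of mesenchymal cells, had 5.94, 3.49 and 6.26 on heart 1, 2 and 3 and 6.11, 5.72 and 5.73 on tail 1, 2 and 3, and differed by 0.38 (95% interval -0.09 to 0.85, limma adjusted p = 0.241). The 2 probes of Fgfr4 ran in opposite directions: the tested one had -1.33 and -0.69 on heart 1 and 3, where tail 2 and 3 had -0.02 and -0.09 (difference -0.95, limma adjusted p = 0.0852), and the other had -1.60 and -1.09 on heart 1 and 3, where tail 2 and 3 had -3.66 and -4.28. No direction is given for Fgfr4. The klotho co-receptor genes Kl and Klb were not well above background on any of the 4 arrays.

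**Figure D3:**
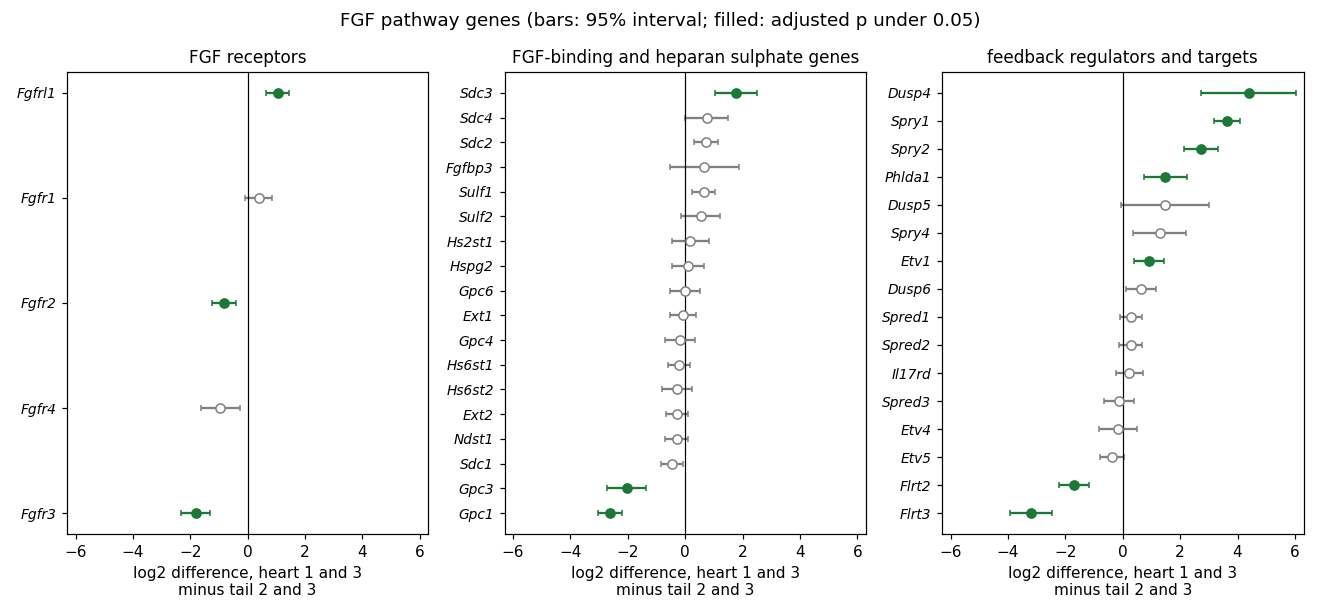
Log2 difference of heart 1 and 3 minus tail 2 and 3 (x axis) with its 95% interval for the tested FGF receptors, heparan sulphate and FGF-binding genes, and feedback regulators and targets. Filled green circles passed the test, among them Spry1 (3.64) on the heart side and Flrt3 (-3.20) on the tail side; Dusp4 and Spry2 were not well above background on tail 3.

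Feedback regulators and targets of FGF signalling, a list that the receptors of other growth factors also drive, showed called genes in both directions. Of 16 tested in the 4-array comparison, 5 rose and 2 fell in heart, with a median difference of 0.46. Over all features 7.75% rose and 6.63% fell, with a median of -0.07. Of the 16 genes, Spry2, Dusp4, Dusp5 and Spred3 entered the test through their signal in heart alone. The count and the median of this list are thus partly set by the filter. Spry1, a Sprouty inhibitor of receptor tyrosine kinase signalling, had 5.78, 0.04 and 5.51 on heart 1, 2 and 3 and 5.62, 2.03 and 1.99 on tail 1, 2 and 3, and was 12.4-fold higher in heart (log2 difference 3.64, SE 0.17, limma adjusted p = 0.00122). Spry2 was higher by 2.73 (SE 0.22, adjusted p = 0.00370) and the MAP kinase phosphatase Dusp4 by 4.39 (SE 0.62, adjusted p = 0.0161), each well above background on tail 2 and not on tail 3. With normexp these differences were 1.44 for Spry2 and 2.51 for Dusp4. Phlda1 (1.49, adjusted p = 0.0353) and the ETS factor Etv1 (0.92, adjusted p = 0.0496) also rose. Phlda1 lost its call without tail 2 (0.130) or tail 3 (0.143), and Etv1 lost it with any 1 array left out.

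The genes that fell were Flrt3 and Flrt2, which encode membrane proteins that bind FGF receptors. Flrt3 had -1.81, -0.24 and -2.53 on heart 1, 2 and 3 and -2.51, 1.03 and 1.03 on tail 1, 2 and 3, 9.16-fold lower in heart 1 and 3 than in tail 2 and 3 (log2 difference -3.20, SE 0.28, limma adjusted p = 0.00432). Flrt2 differed by -1.71 (adjusted p = 0.00883), and lost its call without tail 2 (0.0567) or tail 3 (0.0555). Dusp6, Etv4 and Etv5, widely used readouts of FGF signalling, differed by 0.63, -0.17 and -0.37 and did not pass (adjusted p = 0.121, 0.689 and 0.210). By label limma called 0 of the 15 tested genes of this list, with 1 at an unadjusted p under 0.05.

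Among 18 tested FGF-binding and heparan sulphate genes, 1 rose and 2 fell in the 4-array comparison, and 15 were not called (median difference -0.04). Over all features 7.75% rose and 6.63% fell, with a median of -0.07. The glypican Gpc1, a heparan sulphate proteoglycan of the cell membrane, had 2.17, 2.81 and 2.31 on heart 1, 2 and 3 and 2.11, 4.94 and 4.79 on tail 1, 2 and 3. It was 6.19-fold lower in heart (log2 difference -2.63, SE 0.16, limma adjusted p = 0.00175), and the authors' deposited table lists it with a log2 fold change of -2.49 for heart over tail. Gpc3 differed by -2.04 (adjusted p = 0.0118; 0.0507 without heart 1 and 0.0547 without heart 3) and the syndecan Sdc3 by 1.76 (adjusted p = 0.0211; 0.0747 without tail 2 and 0.0901 without tail 3). Of 8 receptor adaptors, Gab1 rose (1.39, adjusted p = 0.0160; 0.0954 without tail 2 and 0.106 without tail 3), while Frs2 and Grb2 differed by 0.02 and -0.01 and did not pass (adjusted p = 0.934 and 0.980). By label limma called 0 genes of these lists, with 1 of 18 binding genes and 0 of 8 adaptors at an unadjusted p under 0.05.

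Marker genes of other cell types were called in both directions in the 4-array comparison, where 7.75% of all features rose and 6.63% fell in heart. Of 3 tested keratinocyte markers 0 were called. All 4 tendon markers were lower in heart, with a summed scaled signal (signal over the 75th percentile, added over the list) of 0.547 and 0.399 (2 and 1 of the 4 genes well above background) for arrays heart 1 and 3, while arrays tail 2 and 3 reached 475 and 438 and tail 1 had 0.509. Of 6 skeletal muscle markers 2 were tested and both fell. The list summed to 16.3 and 12.7 on heart 1 and 3 and to 46.1 and 39.4 on tail 2 and 3. These sums came nearly all from 1 gene, Acta1 (4.02 and 3.66 on heart 1 and 3, 5.52 and 5.29 on tail 2 and 3). The other tested gene, Myog, entered through tail alone, at -3.48 and -2.42 on tail 2 and 3. Of 5 smooth muscle and pericyte markers 3 fell, with sums of 633 and 585 on heart 1 and 3 and 1455 and 1191 on tail 2 and 3. In the other direction 5 of 7 endothelial markers and 4 of 6 leukocyte markers rose in heart. Their sums overlapped between tissues. The endothelial sums were 16.9 and 22.6 on heart 1 and 3 and 25.8 and 19.4 on tail 2 and 3. The leukocyte sums were 57.0 and 105 on heart 1 and 3 and 74.8 and 56.5 on tail 2 and 3. The brightest probes set these sums, 1 Kdr probe for endothelium and mainly Csf1r and Itgam for leukocytes, none of them called. That Kdr probe had 3.77 and 4.20 on heart 1 and 3 and 4.63 and 4.20 on tail 2 and 3. A second Kdr probe had -1.41 and -1.11 on heart 1 and 3 and -2.49 and -2.91 on tail 2 and 3. Mesothelial and epicardial markers had 2 genes that rose and 1 that fell of 5 tested, cardiomyocyte markers 1 that rose of 3, adipocyte markers 2 that fell of 4, Schwann cell markers 1 that fell of 2, and cartilage markers 1 that rose and 2 that fell of 4. Many markers entered the test through 1 tissue alone, among them 3 of the 4 tendon markers (tail), 3 of the 7 endothelial and 1 of the 6 leukocyte markers (heart), and all 5 mesothelial and epicardial ones (4 heart, 1 tail), so these counts are partly set by the filter. The part of these cells in the FGF ligand values was not tested, and in such bulk RNA fewer cells of a type and less RNA per cell cannot be told apart.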

How the data were processed

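The authors deposited scanner intensities for each spot, made with Agilent Feature Extraction 11.0.1.1 per the file headers; the processed ones are background-subtracted and detrended within each array but not scaled between arrays. The deposited files also hold median spot and local background intensities and other flags of 0 or 1 per spot. A table deposited by the authors gives log2 fold changes and linear fold ratios, with other signed folds, for 433 probes, and nothing used here states its normalization.

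Outlier spots were left out, spots of a probe averaged, and each array's 75th percentile subtracted on the log2 scale. RefSeq accessions named 27235 of 55681 probes. A probe was kept where each array of heart, or each array of tail, flagged it well above background, and the probe of highest mean stood for a gene. limma 3.58.1 in R 4.3.3 (lmFit and eBayes, two-sided, Benjamini-Hochberg over all features, adjusted p under 0.05) compared heart with tail by label, and heart 1 and 3 with tail 2 and 3. Python 3.11.15 with pandas 2.3.3 and matplotlib 3.10.9 did the rest. The fit was tested on simulated data, and repeated with other scalings, normexp, other filters, the mean of probes, array weights, blocks and each array left out. The folds of Fgf5 and Fgf10 set the brighter group's mean against the higher of the dim signal and the array's lowest signal well above background. Some probes above that lowest signal were not flagged, so these folds are not strict lower bounds. The number of arrays limits the precision; the series' design text calls the 3 cultures per tissue biological replicates. The members, gene lists and arrays to leave out were chosen with earlier results of these data known. Named were all members and receptors, Tcf21 and Hoxb13, and, of each other pathway list, at most 6 called genes by size. Etv1, Dusp6, Etv4, Etv5, Frs2, Grb2, Dusp5, Spred3, Fgf23 and the remaining FGF genes were named beside them after their values were seen. So were the second probes and the markers Thbs4, Acta1, Myog, Kdr, Csf1r and Itgam.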

Additional observations from a re-analysis of the deposited data

How the results depend on the processing

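By label, array weights called 1 feature, the replicate block 44 and leaving out heart 2 and tail 1 together 2957, against 0 with all 6 arrays, and leaving out 1 array gave 0 to 214, the highest without heart 1. FGF ligands called by label stayed at 0 in each of these, with the replicate block included and with each array left out (0 to 0), except that 3 passed without heart 2 and tail 1. Same-numbered arrays deviated together for numbers 1 and 2 and apart for number 3 (r = 0.195, 0.259 and -0.33). Arrays of unlike number gave -0.293 to 0.339. The deviations include heart 2 and tail 1, so they can neither show nor exclude pairs. The numbers were not taken as pairs. No paired analysis was possible for the 4-array comparison because it shares only number 3. The 4-array comparison called 716 features without a filter, and 1572 (without tail 3) to 3951 (without heart 1) with 1 array left out. Its called FGF ligands numbered 5 with median scaling, 1 without a filter, 1 with signal required on all 4 arrays, and 2 to 5 with 1 array left out (2 without tail 2, 5 without heart 3). These fits assume that the lone array varies like the other tissue's. Without a filter Fgf5 and Fgf7 lost their calls (adjusted p = 0.0585 and 0.0861). The slide row as a block, added after seeing the data, brought a call for Fgf1 (adjusted p = 0.00706). The sign turned by label for Fgf18 under quantile normalization (0.061), for Fgf13 with median scaling (-0.20), without heart 2 (-0.059; 1 array left out gave -0.059 to 1.30) and without heart 2 and tail 1 (-0.20), and for Fgf9 with array weights (0.53), without heart 2 (0.19; 1 array left out gave -1.16 to 0.19) and without heart 2 and tail 1 (0.49). On 4 arrays it turned for Fgf13 without heart 3 (0.16) or tail 2 (0.23; 1 array left out gave -0.62 to 0.23) and for Fgfr4 with the mean of its probes (0.84). Median scaling moved the median of all features by label to -1.33, against -0.40. 1 of the array-weight fits stopped before convergence. The cause was not tested in any of these. Normexp used median spot signals. Signal over background limits Fgf5, Fgf10, Fgf16 and Fgf21. Fgf1, Fgf2 and Fgf13 were well above background but dim, and with normexp their 4-array differences shrank to 0.73, 0.28 and -0.12.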
